A study of Homo sapiens with 4 samples.

Results

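The stretch of chromosome 11 between 78 and 92 Mb (hg19), which lies in band 11q14, was described from ATAC-seq peak lists of BCPAP cells, an established human papillary thyroid cancer line. There were 2 libraries from cells treated with the demethylating agent 5-azacytidine and 2 from untreated cells. Neither dose nor duration of treatment is labelled, and nothing shows that replicates were separate cultures, so their spread may be technical. Overlapping peaks (1 bp or more) of the 4 lists were joined into regions, each placed by its midpoint. Of 373425 regions on chromosomes 1 to 22 and X, 1468 lay in the 78-92 Mb stretch and 256 of those between 80 and 85 Mb. The neighbouring stretches at 70-78 Mb (2531 regions) and 92-100 Mb (885 regions) served for comparison. A region was called gained when both 5-azacytidine lists and neither untreated list had a peak there, and lost when the reverse held. The 80-85 Mb stretch had been chosen by its counts in these same lists, gained regions and no lost ones. Gained and lost counts there, and every other treated to untreated comparison in this part of the chromosome, are therefore descriptions without a test. With 2 libraries against 2, an exact permutation test could in any case not go below p = 0.333.

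ATAC-seq relies on a transposase that cuts open chromatin and tags it for sequencing, so that promoters, enhancers and other accessible sites collect more reads than closed DNA. 5-Azacytidine is a nucleoside analogue that is built into nucleic acids and traps DNA methyltransferases, so that CpG methylation is lost as cells divide. In gene-poor parts of a chromosome, accessible sites are sparse and much of the DNA lies in compact, partially methylated chromatin. In the RefSeq annotation of GRCh38, 40 protein-coding genes are ordered from TENM4, a teneurin of cell adhesion, to FAT3, an atypical cadherin. Next after TENM4 come FAM181B and PRCP, a lysosomal carboxypeptidase, then a group that includes RAB30, a small GTPase of the Golgi, and PCF11, which acts in the termination of transcription. DLG2, a synaptic scaffold protein, follows CCDC90B. Further along lie PICALM, an adaptor of clathrin-coated vesicles, and EED, the subunit of Polycomb repressive complex 2 that binds methylated histone H3. These are followed by FZD4, a Frizzled receptor of Wnt and norrin signals, CTSC, a lysosomal cysteine protease, GRM5, a glutamate receptor, TYR, the first enzyme of melanin synthesis, and NOX4, an NADPH oxidase. That annotation is on another build than the peak lists, so no gene is assigned to a region here.

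The lists held 259572 and 245142 peaks for 5-azacytidine replicates 1 and 2, against 221110 and 223345 for untreated replicates 1 and 2. Read totals are not known, but the authors' fold values gave the read coverage at each summit, which was 4 or more for every listed peak. They also implied the background coverage of each library. It was 0.898 and 0.875 in 5-azacytidine replicates 1 and 2, against 0.913 and 0.898 in untreated replicates 1 and 2. Median summit coverage over the 105414 regions common to all 4 lists was 11 and 16 in the 5-azacytidine libraries, against 23 and 18 in the untreated libraries. 5-Azacytidine replicate 1 thus had the longest list and the lowest peaks, with 116925 peaks at a coverage of 6 or less, where 5-azacytidine replicate 2 had 73391 and the untreated libraries 51659 and 66503. This difference in peak height between libraries touches every comparison below, and its part in them was not tested.

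Accessible sites were unevenly spread over the 78-92 Mb stretch, with rich and poor steps alike in all 4 libraries. The stretch held 974 and 846 peaks in the 5-azacytidine lists, against 782 and 777 in the untreated lists. Both 5-azacytidine lists lay above both untreated lists, with a mean of 910 ± 90.5 peaks with 5-azacytidine and 780 ± 3.54 peaks in untreated cells (SD, n = 2 each). As a share of its own list this was 0.375% and 0.345% for 5-azacytidine, against 0.354% and 0.348% for untreated cells, where the groups overlapped. There were 105 regions per Mb between 78 and 92 Mb, 316 per Mb at 70-78 Mb and 111 per Mb at 92-100 Mb. Within the stretch, 1 Mb steps ranged from 250 regions at 86-87 Mb down to 6 regions at 84-85 Mb, beside a median of 102 over the 2867 steps of the genome that held any region.

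**Figure D1:**
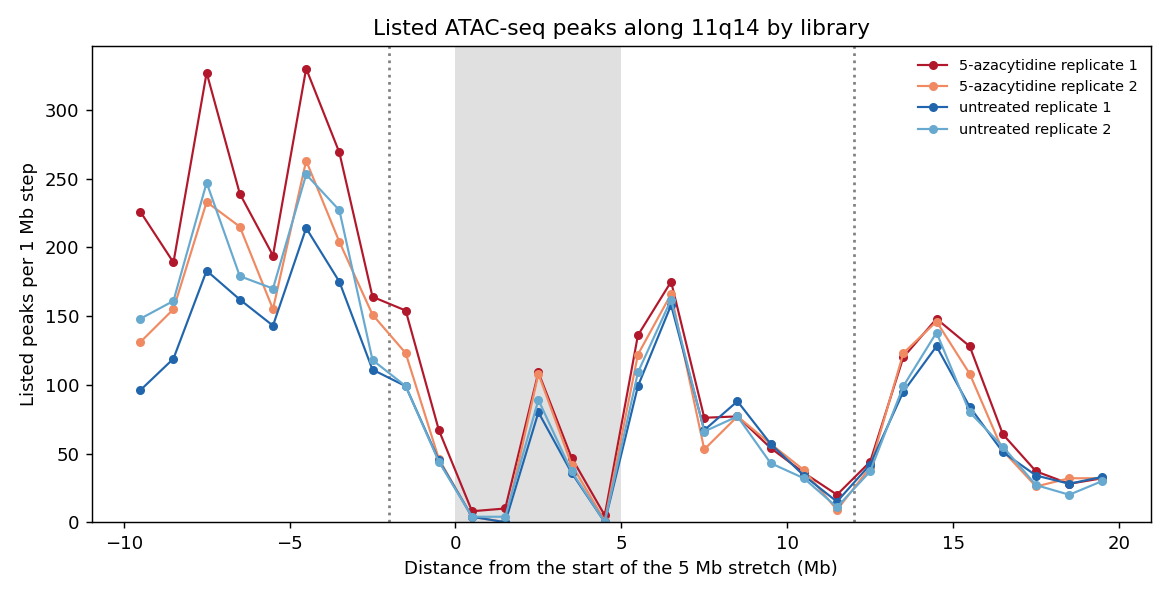
Listed peaks per 1 Mb step (y axis) in each of the 4 libraries along chromosome 11, against the distance in Mb from the start of the 80-85 Mb stretch (x axis). The shaded part is 80-85 Mb, the dotted lines enclose 78-92 Mb, and the parts outside them are the neighbouring stretches. All 4 libraries fall to 10 or fewer peaks in the steps at 80-81, 81-82 and 84-85 Mb and reach 80 to 109 peaks at 82-83 Mb.

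The 80-85 Mb stretch consisted of an island of accessible sites between deserts. All 56 of its regions that were found in all 4 lists lay between chr11:82393154 and chr11:83924248, bounds that were drawn after the values were seen. This island of 1.53 Mb held 219 of the 256 regions, or 143 per Mb. In the island 5-azacytidine lists had 154 and 150 peaks, against 116 and 126 peaks in the untreated lists. The whole lists were also longer with 5-azacytidine, at 259572 and 245142 peaks, against 221110 and 223345 in untreated cells. The island counts are not corrected for this. The other 3.47 Mb held 37 regions, or 10.7 per Mb, and no region there was found in more than 2 lists. Of those 37 regions, 22 were in 5-azacytidine replicate 1 alone, 1 in 5-azacytidine replicate 2 alone, 2 in untreated replicate 1 alone and 7 in untreated replicate 2 alone. These were 59.5%, 2.7%, 5.41% and 18.9% of the 37, beside 19.3%, 11%, 7.69% and 7.95% of all regions in the genome. Coverage was 6 or less at 21 of 25 and 5 of 5 peaks of the 5-azacytidine lists there. In the untreated lists it was so at 2 of 4 and 5 of 8.

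Some of the peak-free tracts in the deserts were longer than 1 Mb. 5-Azacytidine replicate 2 had no listed peak over 2.09 Mb, from chr11:80305541 to chr11:82393153, and untreated replicate 1 had none over 1.68 Mb, from chr11:80717084 to the same end. In 5-azacytidine replicate 1 the longest such tract was 0.56 Mb, from chr11:84291160 to chr11:84849878, which was peak-free in every list. In untreated replicate 2 it was 1.17 Mb, from chr11:83924249 to chr11:85093159. The step at 84-85 Mb had 5 and 1 peaks in the 5-azacytidine lists, against 0 in both untreated lists. Each of these peaks was found in 1 list only. Their coverage was 4 to 7 in 5-azacytidine replicate 1 and 5 in replicate 2, where 4 is the lowest of any listed peak. Over the genome, 39 of 2867 steps had no peak in either untreated list, and 195 had 15 or fewer regions, as did the 3 desert steps here.

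At 80-85 Mb the gained share was near that of the genome, and no region was lost. There were 12 gained regions among 256, which is 4.69% (95% Wilson interval 2.70 to 8.01), beside 4.21% of all regions in the genome and 4.81% on chromosome 11. There were 0 lost regions among 256, and lost regions made up 3.35% of all regions in the genome and 2.37% on chromosome 11. The stretch was chosen for this 0, so nothing is read from the difference. Intervals reflect counting error alone, and regions of 1 library do not replicate each other. The patterns that cross the groups, with a peak in 1 library of each group and in neither of the others, held 1 to 9 regions each. Of 571 windows of 5 Mb with at least 100 regions, 2 had no lost region, this one included, and 118 had a gained share at or above that of 80-85 Mb. Nothing is read from these window counts either, since the stretch was chosen by its own.

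**Figure D2:**
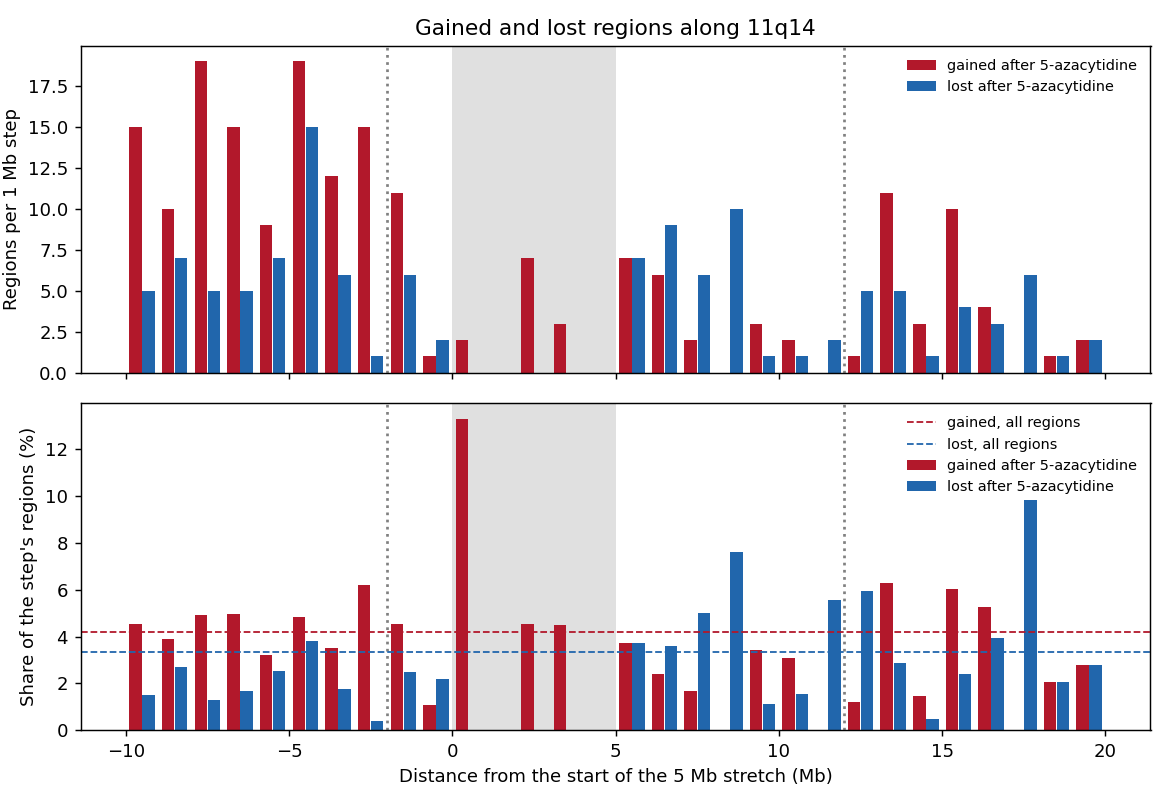
Gained (red) and lost (blue) regions per 1 Mb step, as counts (top, y axis) and as a share of the step's regions in percent (bottom, y axis), against the distance in Mb from the start of the 80-85 Mb stretch (x axis). Shading and dotted lines mark 80-85 Mb and 78-92 Mb, and dashed lines give the shares over all regions, 4.21% gained and 3.35% lost. The step with 13.3% gained held 2 gained regions among 15, and the step at 88-89 Mb held 0 gained and 10 lost regions.

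The 12 gained regions of the 80-85 Mb stretch were low peaks, listed here in order because the stretch is named for them. Over the 12, summit coverage ranged from 5 to 9 in 5-azacytidine replicate 1 (median 5.5) and from 4 to 13 in 5-azacytidine replicate 2 (median 7). Gained regions of the whole genome had a median of 6 in each of the 2 libraries, so these 12 were of ordinary height. None reached a coverage of 10 in both libraries.

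Of the 12, 2 lay in the desert before the island. The region chr11:80154092-80154605 had a coverage of 5 and 4 in 5-azacytidine replicates 1 and 2, and chr11:80243661-80244411 had the same. A coverage of 4 is the lowest a listed peak can have, and these regions lay 280 and 369 kb from the nearest region found in all 4 lists.

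The tallest of the 12 by coverage in 1 library was chr11:82428593-82429100, in the island. It lay 15 kb from the nearest region found in all 4 lists. Its coverage was 7 and 13 in 5-azacytidine replicates 1 and 2. The authors' fold enrichment was 4.21 and 7.47, and the centres of its 2 peaks lay 8 bp apart. Just beyond its end began chr11:82429151-82429931, with a coverage of 10 in each untreated library and 5 in 5-azacytidine replicate 1. At chr11:82906730-82907242 the coverage was 6 and 10, with the centres 13 bp apart and a region found in all 4 lists only 28 bp away. Coverage was 9 and 7 at chr11:82692746-82693544, where the centres lay 299 bp apart, and also 9 and 7 at chr11:83326033-83326569. The nearest region found in all 4 lists lay 305 bp from the former and 26.6 kb from the latter. At all 4 of these gained regions the peak numbering of an untreated list had a gap. The nearest listed peaks on either side had numbers more than 1 apart. A peak somewhere between them may have been called and then taken out. In the genome such a gap was found at 3830 of 15707 gained regions.

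The numbering had no gap at the other 6 regions of the island. Coverage was 5 and 8 at chr11:82576808-82577331 and at chr11:82723583-82724132, and 5 and 6 at chr11:82690631-82691178. The nearest region found in all 4 lists lay 1110, 66 and 90 bp from them in that order. Coverage was 7 and 6 at chr11:82796514-82797018, where the centres of the peaks lay 5 bp apart and such a region 744 bp away. It was 5 and 7 at chr11:83029176-83029783 and 7 and 5 at chr11:83527375-83527922. From these, the nearest region found in all 4 lists was 31.4 kb and 119 bp away. The library with the taller peak thus differed from region to region. In 9 of the 12 regions the centres of the 2 peaks lay within 100 bp of each other (75%), beside 50.8% of all gained regions in the genome.

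**Figure D3:**
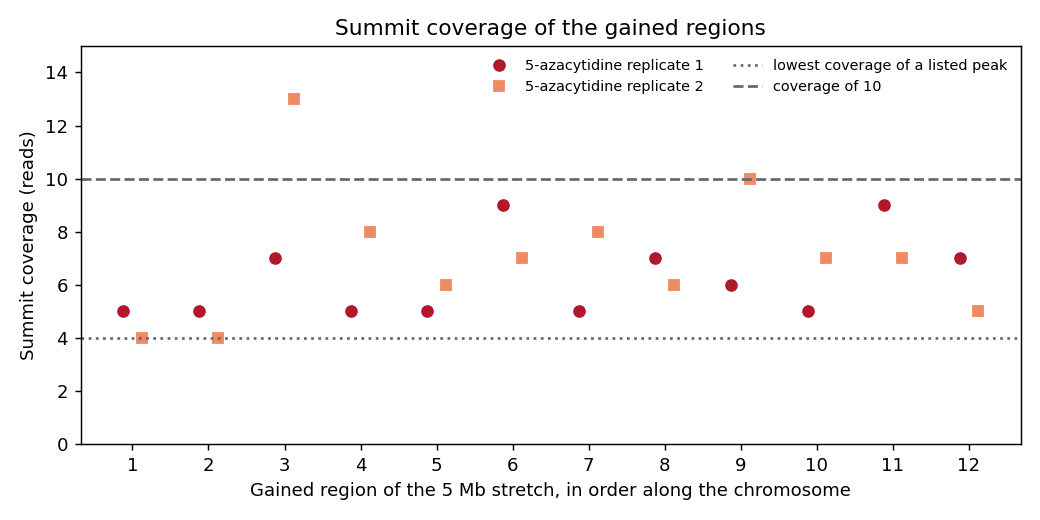
Summit coverage in reads (y axis) of the 12 gained regions of the 80-85 Mb stretch, in order along the chromosome (x axis), in 5-azacytidine replicate 1 (circles) and replicate 2 (squares). The untreated lists had no peak in these regions, and the dotted line at 4 is the lowest coverage of any listed peak. All values of replicate 1 lie between 5 and 9, and replicate 2 reaches 10 and 13 in 1 region each.

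The lost regions nearest to the stretch marked its edges. Before it, chr11:79893886-79894453 reached 7 and 6 reads in untreated replicates 1 and 2, and after it chr11:85306266-85306810 had 12 and 4. Between them lay 5.41 Mb with 265 regions and no lost region. Among 12499 intervals between neighbouring lost regions of the genome, 15 were at least as long in bases and 29 held at least as many regions, this one included. Read by the order of gained and lost regions, 12 gained regions followed each other here without a lost one, and 159 of 5265 runs of gained regions in the genome were at least that long (3.02%). The stretch was chosen for having gained and no lost regions, so nothing is read from these ranks.

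The count of 0 lost regions was not the same under every processing. Merging across gaps of up to 150 bp left it at 0, beside 7 gained regions. With each interval shortened to its central 200 bp, 6 lost regions appeared at 80-85 Mb beside 15 gained ones. Each of the 6 lay in a full-width region that also held a treated peak. For chr11:82613091-82613294 this was the shared region chr11:82610762-82613444, with 77 and 118 in the 5-azacytidine libraries and 151 in each untreated library. With the same number of peaks in every list there were 2 lost and 8 gained. The region chr11:83359605-83360683 had a coverage of 5 in 5-azacytidine replicate 1 and no peak in 5-azacytidine replicate 2, against 20 and 7 in untreated replicates 1 and 2. Next to the tallest gained region, chr11:82429151-82429931 had a coverage of 5 in 5-azacytidine replicate 1 and no peak in 5-azacytidine replicate 2, against 10 in each untreated library. At chr11:82830928-82831799 the same treated library had 5 and the other none, against 7 and 14 in the untreated libraries. These 3 regions were chosen after their values were seen. A peak in both untreated lists and in only 1 of the 5-azacytidine lists was found at 20 regions of the stretch (7.81%), beside 6.22% in the genome. The peak of that treated list had a coverage of 5 to 12, with a median of 7. The mirror pattern, both 5-azacytidine lists and 1 untreated list, was found at 13 regions (5.08%), beside 4.23% in the genome.

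Of the regions at 80-85 Mb, 56 (21.9%) were found in all 4 lists, beside 28.2% in the genome. Their median coverage was 11 and 17.5 in 5-azacytidine replicates 1 and 2, against 21 and 16.5 in untreated replicates 1 and 2, so that the groups overlapped. The median log2 ratio of mean coverage, treated over untreated, was −0.47 there and −0.55 over all 105414 such regions. When each library was first divided by its own median over those 105414 regions, the ratios were 0.15 at 80-85 Mb and 0.06 over the genome, so the direction depended on scaling. Both treated libraries lay below both untreated ones at 23 of the 56 regions (41.1%) and above both at 3 (5.36%), beside 47.6% and 4.39% in the genome.

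Shared sites were ranked by the lowest of their 4 coverages, and the strongest at 80-85 Mb by that measure was chr11:82782289-82783139. It had a coverage of 80 and 122 in the 5-azacytidine libraries, against 227 and 173 in the untreated libraries, and both treated values lay below both untreated ones. At 83-84 Mb the strongest site was chr11:83294882-83295513, with 30 in each 5-azacytidine library, against 39 and 48 in the untreated libraries. The 3 regions with both treated libraries above were lower. The first, chr11:82444114-82445192, had 13 and 14 in the 5-azacytidine libraries, against 6 in each untreated library. At chr11:82871045-82871969 the coverage was 14 and 25 in the 5-azacytidine libraries, against 13 and 8 in the untreated ones. At chr11:83485207-83485756 it was 10 and 12 in the 5-azacytidine libraries, against 9 and 7 in the untreated ones.

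**Figure D4:**
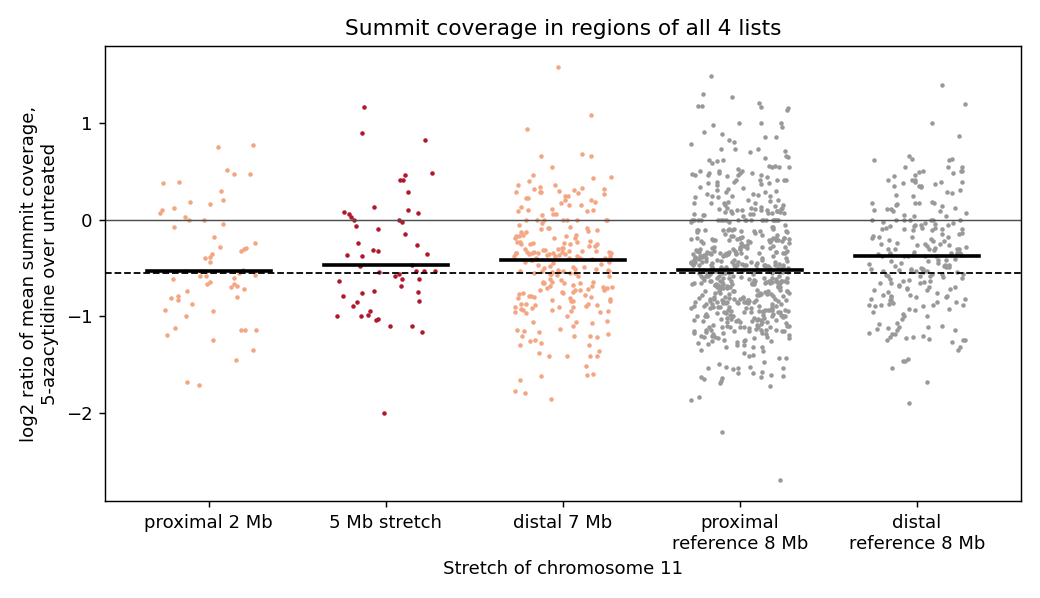
The log2 ratio of mean summit coverage, 5-azacytidine over untreated (y axis), for each region found in all 4 lists (points) in 5 stretches of chromosome 11 (x axis): 78-80, 80-85 and 85-92 Mb, then 70-78 and 92-100 Mb. Black bars are medians, between −0.54 and −0.37, and the dashed line is the median over the genome, −0.55. Coverage is not scaled between libraries.

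Between 85 and 92 Mb lost regions outnumbered gained ones in sum, but not in every step. This stretch held 20 gained regions among 877 (2.28%, 95% Wilson interval 1.48 to 3.50) and 36 lost regions (4.10%, 2.98 to 5.63), beside the 4.21% and 3.35% of the genome. The step at 85-86 Mb held 7 gained and 7 lost regions, that at 86-87 Mb 6 and 9, that at 87-88 Mb 2 and 6, and that at 88-89 Mb 0 and 10. At 89-90 Mb there were 3 gained and 1 lost, at 90-91 Mb 2 and 1, and at 91-92 Mb 0 and 2. From chr11:87988427 to chr11:89044051 there were 12 lost regions in a row with no gained one between them. Runs of at least 12 lost regions numbered 56 of 5265 in the genome (1.06%). Coverage in this run was 5 to 16 in untreated replicate 1 (median 7) and 4 to 11 in untreated replicate 2 (median 5.5), so these too were mostly low peaks.

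Only 1 gained region between 78 and 92 Mb reached a coverage of 10 in both lists. It was chr11:87002838-87003355, with a coverage of 23 and 30 in 5-azacytidine replicates 1 and 2 and neither a listed peak nor a gap in the numbering of the untreated lists. It ranked above 92.5% and 89.6% of the peaks of these lists by the authors' p-value and lay 60.4 kb from the nearest region found in all 4 lists. Among all regions, 0.139% were gained and 0.260% lost at that coverage.

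Lost regions with 10 or more reads in both untreated lists numbered 5 between 78 and 92 Mb, all of them beyond 86 Mb. The strongest by rank of the authors' p-value, taking the worse of the 2 lists, was chr11:86375913-86376424, which had 18 and 15 in untreated replicates 1 and 2. It was followed by chr11:88138456-88138982 with 16 and 11, and at both the numbering of a treated list had a gap. For the other 3 it had none: coverage was 13 and 11 at chr11:88364616-88365138, 16 and 10 at chr11:86158710-86159215, and 11 and 11 at chr11:86774994-86775514. The centres of the 2 untreated peaks lay 6 to 27 bp apart in the 5 regions.

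Ranked in the same way, by the lowest of the 4 coverages, the first shared site of each step beyond 85 Mb was as follows; other sites can be higher in single libraries. At 85-86 Mb it was chr11:85429909-85430915, with a coverage of 68 and 99 in the 5-azacytidine libraries, against 148 and 99 in the untreated ones. At chr11:86343417-86344306 the coverage was 95 and 116 in the 5-azacytidine libraries, against 209 and 130 in the untreated ones, and at chr11:87063774-87064573 it was 73 and 122, against 129 and 120. In the second of these the groups overlapped. At 88-89 Mb, the step without a gained region, the strongest shared site was chr11:88288013-88288530, with 52 and 80 in the 5-azacytidine libraries, against 111 and 80 in the untreated ones. At 89-90 Mb it was chr11:89114224-89114745, with 36 and 56 in the 5-azacytidine libraries, against 55 and 50 in the untreated ones. At 90-91 Mb it was chr11:90201503-90202552, with 21 in each 5-azacytidine library, against 37 and 23 in the untreated ones. The strongest at 91-92 Mb, chr11:91979643-91980239, had 15 and 12 in the 5-azacytidine libraries, against 18 and 14 in the untreated ones. In that step only 2 of 36 regions were found in all 4 lists, beside 80 of 250 at 86-87 Mb.

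At the near end, 78-80 Mb held 12 gained (3.58%) and 8 lost regions (2.39%) among 335, beside 4.21% and 3.35% in the genome. Of these, 11 gained and 6 lost lay in the first Mb, where regions numbered 243, against 92 in the next. The strongest shared site there, chr11:78426600-78427125, had a coverage of 74 and 106 in the 5-azacytidine libraries, against 141 and 120 in the untreated ones. In the next Mb it was chr11:79142520-79143068, with 40 and 80 in the 5-azacytidine libraries, against 105 and 71 in the untreated ones, where the groups overlapped.

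Over the whole 78-92 Mb stretch the gained and lost regions were equal in number, at 44 each among 1468, or 3.0% (95% Wilson interval 2.24 to 4.0) for either class. Among all regions in the genome 4.21% were gained and 3.35% lost, and on chromosome 11 4.81% and 2.37%. With the same number of peaks in every list there were 28 gained and 52 lost, and at a −log10 q of 5 or more 11 and 26. The crossed patterns held 17 to 33 regions each. At 70-78 Mb, 114 regions were gained (4.50%, 3.76 to 5.38) and 51 lost (2.02%, 1.54 to 2.64), and at 92-100 Mb, 32 were gained (3.62%, 2.57 to 5.06) and 27 lost (3.05%, 2.11 to 4.40). The balance in the neighbouring stretches together, 146 gained and 78 lost, was also not the same under every setting: it was 105 and 103 with the same number of peaks in every list, and 36 and 55 at a −log10 q of 5 or more. By the same rank, the strongest gained region of the neighbouring stretches was chr11:70261139-70261678, with 14 and 17 in the 5-azacytidine libraries, and the strongest lost one chr11:93318919-93319425, with 20 and 14 in the untreated libraries, both beside a gap in the peak numbering of the other group. The strongest gained region at 92-100 Mb, chr11:95955247-95955759, had 10 and 18 in the 5-azacytidine libraries, and the strongest lost one at 70-78 Mb, chr11:70092212-70092713, had 11 and 12 in the untreated libraries. A gap in the peak numbering touched 11 of the 44 gained and 11 of the 44 lost regions at 78-92 Mb. In the genome it touched 3830 of 15707 gained and 3264 of 12522 lost regions.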

How the data were processed

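ATAC-seq peak lists of 4 BCPAP libraries were used. Per the submitters' processing notes, the tools were MACS2, Picard, Bowtie2 and Trimmomatic, and the build was hg19. Settings, and any shift of read ends for the transposase, are not given in the sources at hand. Peaks were called per library, as the deposited peak names show, and nearly all deposited intervals were 500 bp wide. The deposited score had been scaled to a total of 1000000 per list and was not used. The deposited fold enrichment and −log10 p and q values are the peak's own, as the authors' peak caller gave them. Fold values rose in equal steps within a list (tolerance 0.01 of a step), each step being 1 read of summit coverage: coverage is the number of steps less 1. The deposited summit offset was not used.

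Regions, classes and coverage (the highest summit of a list in a region) were computed with Python 3.11.15, numpy 2.4.6, pandas 2.3.3 and scipy 1.17.1. Regions and classes were checked on simulated lists. Neighbouring sites never overlapped in those lists, so the joining of neighbouring sites was not checked. The regions, stretches and rules were chosen with earlier results of these data known. Named regions were all gained ones at 80-85 Mb, the nearest lost ones, those reaching 10 reads in both lists, and the shared one with the highest lowest coverage per 1 Mb step, with exceptions stated. Alternatives were equal list lengths (221110 peaks), a −log10 q of at least 5, a 150 bp merging gap, central 200 bp intervals, missing peak numbers, moved bounds, scaling, each library left out and the replicate block. The minimum of 10 reads was added after seeing the data. No sequence is shown, since no hg19 genome was used.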

Additional observations from a re-analysis of the deposited data

How the results depend on the processing

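With the same number of peaks in every list, 28 regions were gained and 52 lost at 78-92 Mb, 8 and 2 at 80-85 Mb, 105 and 103 in the neighbouring stretches, and the log2 ratio of listed peaks at 78-92 Mb was 0.01 (0.22 without this limit). With −log10 q held to 5 or more, there were 11 gained and 26 lost regions at 78-92 Mb, 2 and 1 at 80-85 Mb, and 36 and 55 in the neighbouring stretches, and the log2 ratio of peaks turned to −0.16. Merging across 150 bp left 7 gained and 0 lost regions at 80-85 Mb. Central 200 bp intervals gave 6 lost regions there and 120 in the neighbouring stretches (78 in the full lists). Moving the 5 Mb stretch by 0.5 Mb either way or by −1 Mb gave 2 lost regions, and by 1 Mb gave 7. With 10 or more reads in both lists there were 1 gained and 5 lost regions at 78-92 Mb, 0 and 0 at 80-85 Mb, and 6 and 4 in the neighbouring stretches. Divided by the list totals, the log2 ratio of peaks was 0.04. Divided by each library's median, the log2 ratio of shared coverage at 78-92 Mb turned from −0.45 to 0.16. The cause of these shifts was not tested.

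With each library left out in turn, counts rise by construction, since fewer lists must hold or lack a peak. Gained regions then numbered 73 to 393 at 78-92 Mb, 18 to 84 at 80-85 Mb and 242 to 1008 in the neighbouring stretches, and lost regions 80 to 189, 9 to 28 and 153 to 439. The log2 ratio of peaks was 0.12 to 0.32, lowest without 5-azacytidine replicate 1, and that of shared coverage −0.82 to −0.24, lowest without 5-azacytidine replicate 2. The replicate block left them at 0.22 and −0.45, as a block cannot shift group means when each group holds 1 library per replicate number. No pairing by replicate number was seen: the differences between replicates 1 and 2 in the 2 groups correlated at −0.05 over 105414 shared regions. The labels do not say whether the libraries were paired, and this correlation cannot decide it. Read totals are missing, and the background coverage, nearly alike in all libraries, is the only guide to depth at hand. Coverage near 4 cannot separate an absent site from one just below calling.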

Other observations

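The crossed patterns leaned different ways along this part of chromosome 11. Regions shared by 5-azacytidine replicate 1 and untreated replicate 2 alone numbered 101 at 70-78 Mb, where those shared by 5-azacytidine replicate 2 and untreated replicate 1 alone numbered 37. At 78-92 Mb the same patterns held 17 and 33 regions, at 80-85 Mb 1 and 9, and over the genome 7356 and 9026. A run of 21 gained regions without a lost one, from chr11:77186893 to chr11:78181407, crossed the 78 Mb bound. It was longer by count than the run of 12 at 80-85 Mb and covered 0.99 Mb, where that run covered 3.37 Mb. Runs of at least 21 gained regions numbered 39 of 5265 in the genome (0.741%), and nothing is read from this rank either.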
